A study of Mus musculus with 28 samples.

Results

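Gsk3b and Etv6 lie in the 2 longest stretches of the mouse genome that were covered by H3K79me2 peaks in all 4 libraries of that mark from K-Ras-driven lung tumours, once gaps no longer than 1000 bp were counted as covered. With no gap closed, the longest shared stretches of the loci were only 25.9 kb and 26.6 kb. The members described here are all peaks of the 24 deposited lists that shared at least 1 bp with a window of 185 kb around Gsk3b on chromosome 16 or of 260 kb around Etv6 on chromosome 6 (build mm9). The windows began 14.8 kb and 17.0 kb before the H3K79me2 stretches. There were 450 peaks in the Gsk3b window and 554 in the Etv6 window, which makes 1004 of the 950445 peaks of the series. The loci were chosen by the length of their H3K79me2 coverage, so the H3K79me2 values are given as a description, without a test.

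The tumours arose in mice that carried K-RasLSL-G12D, a mutant K-Ras allele silenced until Cre removes a stop cassette, and some of the mice also carried Mll4fl/fl, floxed alleles of a gene for a histone H3 lysine 4 methyltransferase. All received Ad-CMV-Cre, an adenovirus that expresses Cre from the CMV promoter, which is active in many cell types, so recombination was not limited by the promoter to a single lung cell type. Per the labels, 6 histone marks were mapped by chromatin immunoprecipitation and sequencing with 4 libraries per mark, and 4 samples of input DNA are not used here. The labels name both genotypes for the series but do not assign a library to either, so libraries are given by mark and replicate number, and no genotypes were compared. The spread between the 4 libraries of a mark can therefore include a difference between genotypes. The labels do not give the age of the mice or say whether a replicate number stands for 1 tumour or animal, and the tissue label was not checked against marker genes because no gene annotation of the mm9 build was used. In whole tumour tissue, fewer cells with a mark and less of the mark per cell cannot be told apart.

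H3K79me2 is placed by the methyltransferase Dot1l on the bodies of transcribed genes, and it usually begins just after the start of transcription and fades along the gene. H3K4me3 marks active promoters, H3K4me1 together with H3K27ac marks active enhancers, and H3K27me3 and H3K9me3 mark repressed chromatin. Gsk3b encodes glycogen synthase kinase 3 beta, a serine/threonine kinase that phosphorylates beta-catenin for destruction in the Wnt pathway and acts in glycogen metabolism. Etv6, also called Tel, encodes a transcriptional repressor of the ETS family that is needed in blood stem cells and is known from fusion genes in leukaemia.

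The promoter sequences of both genes are shown because H3K4me3, the promoter mark, forms 1 region in each window. Where these bases lie relative to the mm9 peaks was not checked. They come from RefSeq in build GRCm38.p6, which is not the build of the peaks, and run from 250 bases before to 50 bases after the annotated start. Both genes are on the plus strand there, Gsk3b at chr16:38088751-38089050 and Etv6 at chr6:134035450-134035749 of GRCm38.p6. Capitals mark matches to CCAAT or GGGCGG on either strand, the core letters of CCAAT boxes and of GC boxes.
Gsk3b: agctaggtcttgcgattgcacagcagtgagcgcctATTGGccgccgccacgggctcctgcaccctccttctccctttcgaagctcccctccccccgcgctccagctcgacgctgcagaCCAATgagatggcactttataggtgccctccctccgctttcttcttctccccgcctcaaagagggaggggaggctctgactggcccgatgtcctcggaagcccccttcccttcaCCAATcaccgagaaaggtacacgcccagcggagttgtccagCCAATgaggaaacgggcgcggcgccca
Etv6: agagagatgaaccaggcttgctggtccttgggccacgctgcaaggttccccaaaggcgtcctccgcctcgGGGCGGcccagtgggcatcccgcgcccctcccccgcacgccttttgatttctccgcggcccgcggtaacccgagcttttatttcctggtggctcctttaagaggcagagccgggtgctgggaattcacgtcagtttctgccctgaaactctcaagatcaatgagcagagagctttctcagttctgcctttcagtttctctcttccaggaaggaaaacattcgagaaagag
The Gsk3b promoter held 4 CCAAT matches, 3 on the plus strand and 1 on the minus strand, and no GC-box match. The Etv6 promoter held 1 GC-box match and none of the other motif. At least 1 CCAAT match on either strand was found in 37.4% of the 32851 RefSeq promoters of 300 bases, and at least 1 GC-box match in 35.7%. Of the other motifs searched, TATAAA had 1 match at Gsk3b, on the minus strand, and none at Etv6, against 13.6% of promoters with a match. Neither promoter held CACGTG or GGAAGT, found in 7.15% and 23.8% of promoters. Gsk3b had 21 CG pairs in the 300 bases and Etv6 had 17, against a median of 7. Fewer CG pairs were found in 75.2% of these promoters than at Gsk3b and in 68.6% than at Etv6. A match of letters is a description and not a binding site.

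At Gsk3b, 1 stretch of 95.4 kb was covered by H3K79me2 in every library of the mark after gaps no longer than 1000 bp were closed, from 38089753 to 38185111 on chromosome 16 (mm9). It is called the Gsk3b domain here, and positions are given as distances from its start. Within it, H3K79me2 replicates 1 to 4 covered 93.975, 94.774, 94.073 and 92.495 kb. The first 3 libraries reported the first 62 kb as a single peak of 62.8, 62.6 and 62.3 kb, whereas replicate 4 broke the domain into 13 peaks, the longest of 25.9 kb. Bases uncovered in all 4 libraries formed 3 short gaps, at 62356 to 62684, 78402 to 78652 and 82836 to 82843 bp. Replicates 1 to 4 had 4, 3, 3 and 12 gaps in the domain, over 1384, 585, 1286 and 2864 bp. In at least 1 library, 3141 bp of the domain were uncovered. H3K79me2 covered a smaller share of the rest of the window. The rest of the window measured 89.6 kb, of which replicates 1 to 4 covered 29.4, 32.7, 43.5 and 9.87 kb. The last H3K79me2 peak ended 140.1, 139.8, 148.0 and 132.4 kb after the domain start, so replicate 3 reached farthest and replicate 4 least far. Both edges of the domain are peak edges of replicate 4. Without replicate 4 the shared stretch was 101.0 kb.

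**Figure D1:**
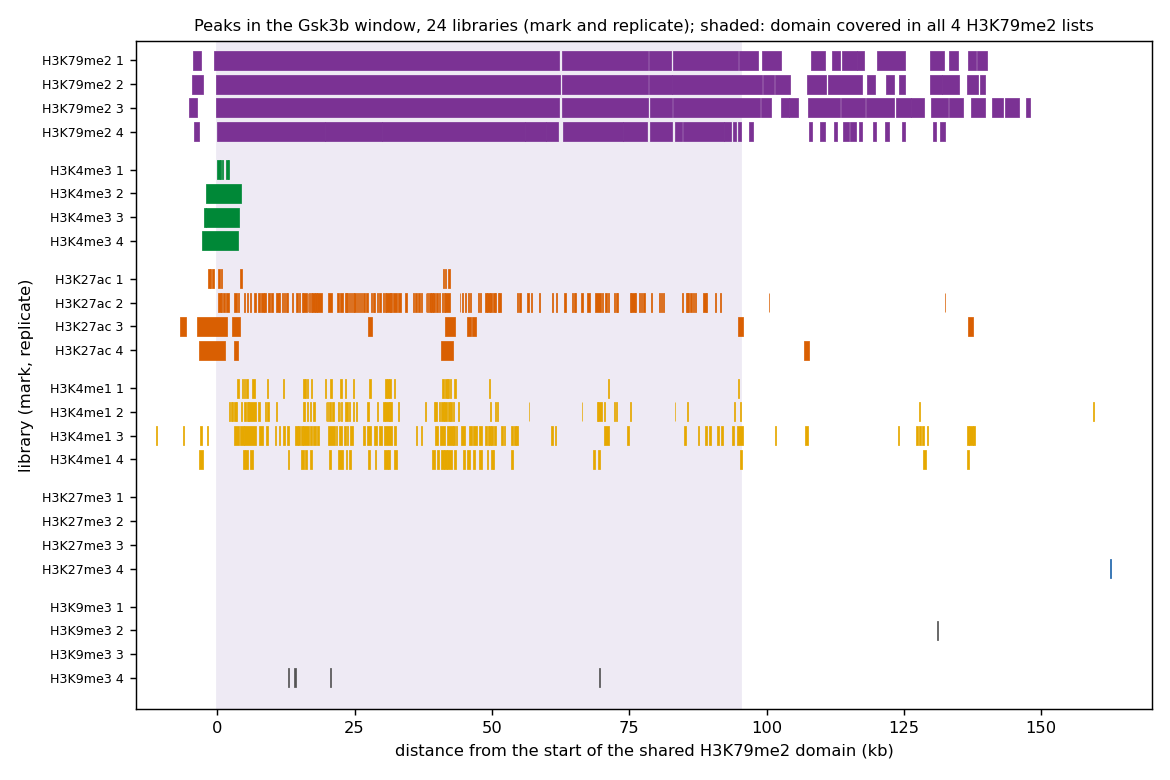
Peaks of the 24 lists in the Gsk3b window, 1 row per library, by distance from the start of the domain in kb. The shaded span is the 95.4 kb covered in all 4 H3K79me2 lists; H3K4me3 sits at its start, H3K4me1 is dense in its first 50 kb, and H3K27ac replicate 2 has peaks along the whole domain where replicates 1, 3 and 4 have few.

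At Etv6 the shared stretch was 75.7 kb, from 133986959 to 134062681 on chromosome 6 (mm9). Replicates 1 to 4 covered 75.486, 75.544, 75.430 and 73.216 kb of it. The first peak was 62.5, 60.6 and 61.0 kb long in replicates 1 to 3, and replicate 4 had 15 peaks in the domain, the longest of 26.6 kb. Bases uncovered in all 4 libraries formed 1 gap, from 60272 to 60440 bp. Replicates 1 to 4 had 1, 1, 1 and 14 gaps in the domain. The rest of the Etv6 window measured 184 kb, and replicates 1 to 4 covered 101.9, 120.1, 93.4 and 86.2 kb of it, a share of 54.5% ± 7.9 (SD, n = 4) against 32.2% ± 15.6 (SD, n = 4) in the rest of the Gsk3b window. The shares of the loci overlapped, since H3K79me2 replicate 3 covered 48.5% at Gsk3b and replicate 4 covered 46.8% at Etv6, and the windows reach different distances past the last peak. The last H3K79me2 peak of the Etv6 window ended at 223.6, 223.7, 223.4 and 223.2 kb, within 1 kb in all 4 libraries. Counting gaps no longer than 1000 bp as covered, replicate 2 alone ran on to 161.0 kb, while replicates 1, 3 and 4 ran to 85.8, 83.5 and 75.7 kb. The end of the Etv6 domain is thus an interruption within a longer H3K79me2 stretch, set by replicate 4, and the shared stretch without that library was 83.9 kb.

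**Figure D2:**
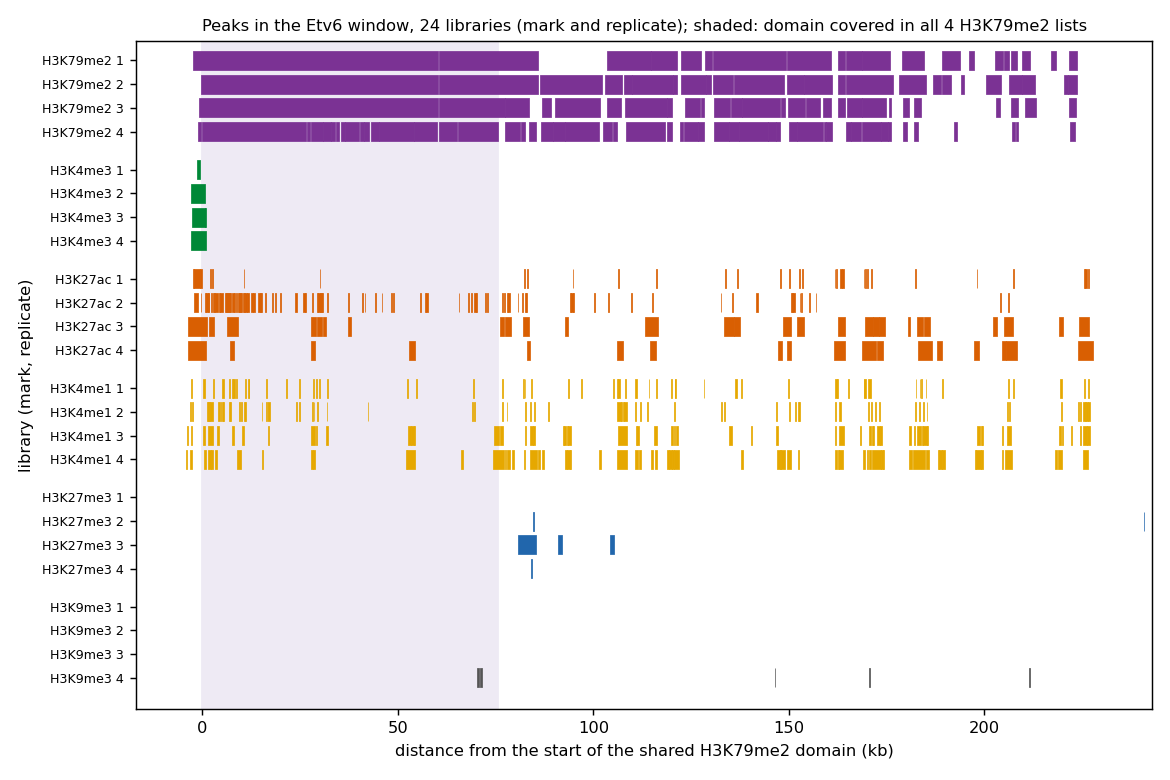
Peaks of the 24 lists in the Etv6 window, drawn as for Gsk3b, by distance from the start of the domain in kb. H3K79me2 goes on in blocks to about 223 kb in all 4 libraries, H3K27ac and H3K4me1 lie both inside and beyond the domain with gaps between, and H3K27me3 appears in replicates 2, 3 and 4 near 84 kb.

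These stretches ranked first and second among 16436 shared H3K79me2 stretches with a median of 2607 bp. The third measured 72.8 kb (chromosome 8, 47821912 to 47894668), only slightly less than Etv6, and the next were 69.5 kb (chromosome 16, 76303193 to 76372684) and 68.7 kb (chromosome 15, 8324495 to 8393204). All 3 held H3K4me3 and H3K4me1 peaks in 4 of 4 libraries and no H3K27me3 peak, as the Gsk3b domain did. H3K27ac covered 52.8% ± 24.3 (SD, n = 4) of the third, against 13.5% ± 17.5 of the Gsk3b domain and 10.6% ± 9.6 of the Etv6 domain, differences that were not tested.

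The deposited score, which ranks the peaks of a list, did not follow this length. The 62.8 kb Gsk3b peak of H3K79me2 replicate 1 scored 68.12 and the 62.6 kb peak of replicate 2 scored 52.56, close to the lowest score of any list, 50. The long Etv6 peak scored 61.75 in replicate 1 and 287.64 in replicate 2. In replicate 3 both long peaks scored higher, 457.25 at Gsk3b and 469.32 at Etv6. Over whole lists, peaks 10 to 20 kb wide had the highest median scores, 859, 1152, 1993 and 2338 in H3K79me2 replicates 1 to 4, and peaks of 40 kb or more had medians of 204, 355, 632 and 731. Among the 103 peaks of 40 kb or more in replicate 1, 23.3% scored below the median of all peaks of the series, 92.2, against 1.57% of the peaks 10 to 20 kb wide. In replicates 2 to 4 the share among peaks of 40 kb or more was 11.4%, 4.17% and 5%. Short peaks scored lowest of all, with 44.2% to 71.0% of those under 2 kb below that median. A score filter at 92.2 therefore removed long peaks over both loci, and the shared stretch fell to 30.7 kb at Gsk3b and 15.8 kb at Etv6. Why the widest peaks scored below those of 10 to 20 kb was not tested.

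**Figure D3:**
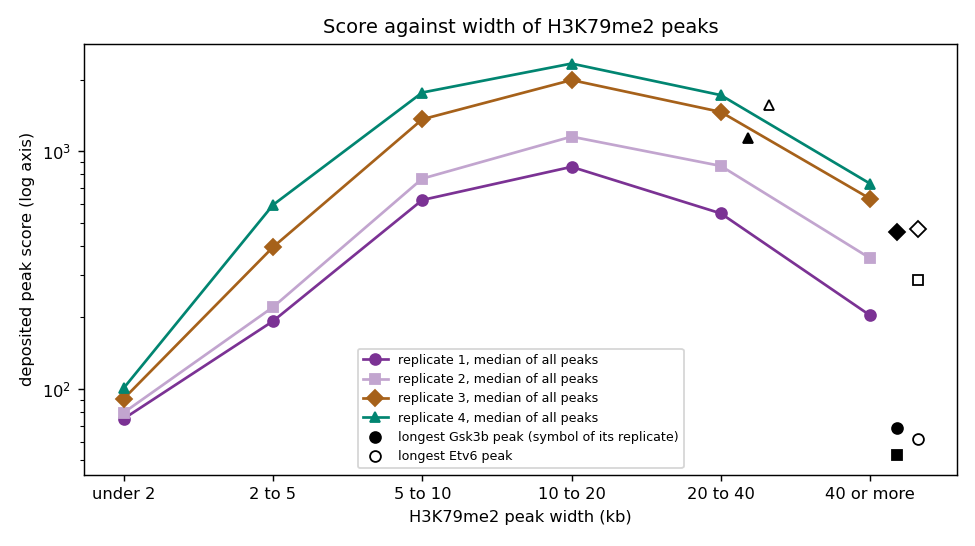
Median deposited score (log axis) of H3K79me2 peaks by width class in kb, 1 line per replicate, with the longest Gsk3b peak (filled black) and the longest Etv6 peak (open) of each replicate as points at their width class. Medians peak at 10 to 20 kb, and the long peaks of replicate 1 at both loci and of replicate 2 at Gsk3b lie far below the medians of their class.

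H3K4me3 formed a single region at each locus, at the start of the domain, called the promoter region here. At Gsk3b, H3K4me3 replicates 1 to 4 covered 1557, 6383, 6204 and 6509 bp of it. Replicate 1 was low, with 5 short peaks scoring at most 119.99, and the other 3 libraries each had a main peak with a score of 3100. In the series 8527 peaks had that same score, so it does not rank these main peaks against each other. The H3K4me3 replicate 1 list was thin everywhere: it covered 0.123% of the genome span between the first and last peaks of the chromosomes, against 1.28%, 1.05% and 1.26% in replicates 2 to 4. The mean was 5163 ± 2407 bp (SD, n = 4) and 6365 ± 153 bp without replicate 1 (SD, n = 3). In those 3 libraries the H3K4me3 region began at -2124, -2322 and -2696 bp and ended at 4259, 3923 and 3813 bp, so it straddled the H3K79me2 edge. Each H3K79me2 library also had a separate peak before the start of the Gsk3b domain, beginning at -4451, -4562, -5209 and -4269 bp in replicates 1 to 4, ahead of most of the H3K4me3 region.

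At Etv6, H3K4me3 covered 673, 3616, 3532 and 3779 bp in replicates 1 to 4, again with replicate 1, the thin list, far below the rest. The mean was 2900 ± 1488 bp (SD, n = 4) and 3642 ± 126 bp without replicate 1 (SD, n = 3). In the other 3 libraries it ran from -2893, -2607 and -2993 bp to 723, 955 and 786 bp. The Gsk3b region was longer than the Etv6 region in 4 of 4 libraries, and in replicates 2, 3 and 4 most of the Etv6 region lay before the start of the shared domain, whereas most of the Gsk3b region lay after it. Single H3K79me2 libraries began at different positions at Etv6. H3K79me2 replicate 1 began at -2317 bp and covered 3272 bp of the Etv6 promoter region, while replicates 2 to 4 covered 1316, 1743 and 1677 bp. At Gsk3b, H3K79me2 covered 4912, 4701, 4415 and 4259 bp of the promoter region in replicates 1 to 4.

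H3K27ac overlapped the H3K4me3 region of both genes in every library. At Gsk3b it covered 1658, 2539, 5856 and 4988 bp of the H3K4me3 region in replicates 1 to 4, and at Etv6 2094, 1359, 3948 and 3804 bp. Replicates 3 and 4 were higher than replicates 1 and 2 at both promoters, and the same split held over whole lists, where H3K27ac covered 0.777%, 0.859%, 4.49% and 4.40% of the genome span in replicates 1 to 4. H3K4me1 covered little of it, 346, 1066, 1262 and 51 bp at Gsk3b and 636, 444, 1064 and 951 bp at Etv6. No H3K27me3 or H3K9me3 peak of any library touched either promoter region.

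**Figure D4:**
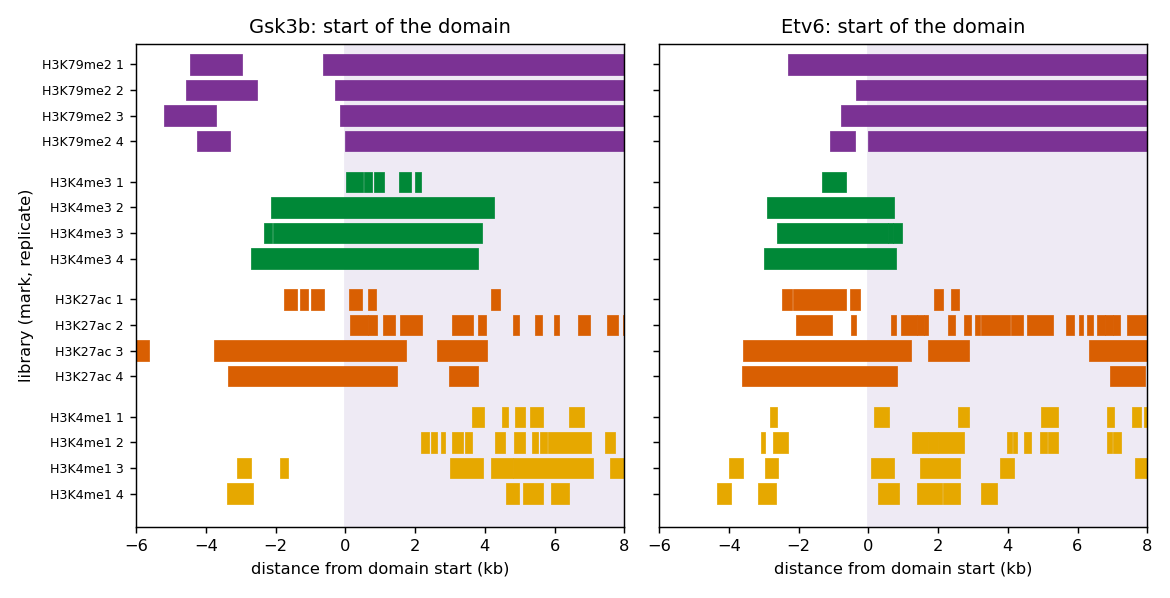
Peaks of H3K79me2, H3K4me3, H3K27ac and H3K4me1 from -6 to 8 kb around the start of the domain at Gsk3b (left) and Etv6 (right), 1 row per library. H3K4me3 replicate 1 is short at both loci, and the separate H3K79me2 peak before the start of the Gsk3b domain is present in all 4 libraries.

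In the Gsk3b window, H3K4me1 peaks lay almost wholly inside the domain. H3K4me1 replicates 1 to 4 covered 8.07, 16.6, 30.5 and 13.5 kb of the domain and 0, 0.431, 4.92 and 1.65 kb of the rest of the window. That was 18.0% ± 10.0 of the domain and 1.95% ± 2.48 of the rest (SD, n = 4), a difference of 16.1 percentage points that was positive in 4 of 4 libraries. The groups did not overlap, and the exact sign-flip p over libraries was 0.125, the smallest that 4 libraries allow, with an adjusted p of 0.500 over 8 tests. The difference was 3.48 percentage points when every list was cut to its 5224 highest scores (exact sign-flip p 0.25) and 26.5 with peaks closer than 1000 bp merged. Within the domain, 93.3%, 82.6%, 77.7% and 89.4% of the H3K4me1 bases of replicates 1 to 4 lay in the first 50 kb, a distance chosen after the values were seen. Merging H3K4me1 peaks over libraries gave 76 regions mostly inside the domain, of which 12 were present in 4 of 4 libraries and 44 in 1.

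H3K27ac at Gsk3b differed sharply between libraries. Replicates 1 to 4 covered 1.64, 37.6, 7.85 and 4.31 kb of the domain, and replicate 2 had 129 peaks in it against 6, 7 and 3 in replicates 1, 3 and 4. Relative to the share of the genome that each list covered, taken over the span between the first and last peak of each chromosome, the domain was 45.9-fold enriched in H3K27ac replicate 2 and 2.21-fold, 1.84-fold and 1.03-fold in replicates 1, 3 and 4. H3K27ac replicate 2 stood apart at Etv6 too, with 63 peaks in the domain against 4, 7 and 4 in replicates 1, 3 and 4. Of its peaks, 129 of 131 in the Gsk3b window and 63 of 92 in the Etv6 window lay in the domain. Its peaks thus lay along the H3K79me2 domains more than those of the other H3K27ac libraries did, and whether a label or a mixture with another library has a part in this was not tested. The H3K27ac means and the counts of enhancer-like regions include this library unless stated. H3K27ac covered 13.5% ± 17.5 of the Gsk3b domain and 3.27% ± 3.15 of the rest (SD, n = 4), a difference of 10.2 percentage points with an exact sign-flip p of 0.250 (adjusted 0.667). Without replicate 2 the difference was 0.553 percentage points.

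The clearest enhancer-like region in either domain lay in Gsk3b from 40.8 to 43.2 kb after the domain start. Enhancer-like here means merged H3K27ac peaks from at least 2 of 4 libraries that touched H3K4me1 peaks of at least 2 libraries and no H3K4me3 peak. H3K27ac covered 790, 1231, 1787 and 2015 bp of this region in replicates 1 to 4, and H3K4me1 covered 1344, 2049, 1985 and 1845 bp. It was the only one of the 8 enhancer-like regions in both domains that had H3K27ac in 4 of 4 libraries. The other 2 in Gsk3b, from 27.1 to 28.2 kb and from 45.4 to 46.3 kb, had H3K27ac in replicates 2 and 3 only, so without replicate 2 the count was 1. Of the 12 H3K4me1 regions present in all 4 libraries, 8 met H3K27ac in replicate 2 alone and 4 in replicate 1, 3 or 4. No enhancer-like region lay in the rest of the Gsk3b window.

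At Etv6 the enhancer marks were found both inside the domain and in the rest of the window. The whole H3K4me1 lists covered 0.602%, 0.969%, 1.82% and 2.16% of the genome span in replicates 1 to 4. The part of this breadth in the Etv6 values was not tested. H3K4me1 replicates 1 to 4 covered 5.17, 6.66, 7.67 and 8.51 kb of the domain and 9.99, 11.3, 24.2 and 39.8 kb of the rest of the window. That was 9.25% ± 1.90 of the domain and 11.6% ± 7.5 of the rest (SD, n = 4), a difference of -2.33 percentage points, positive in 2 of 4 libraries (exact sign-flip p 0.625, adjusted 1). It was -3.99 without replicate 2 and 0.358 without replicate 4, and it was also just above 0 with the domain covered in at least 3 of 4 lists (0.0435) and as peaks per 10 kb (0.00882). H3K27ac covered 0.810, 17.6, 9.14 and 4.50 kb of the Etv6 domain and 8.26, 7.32, 36.4 and 31.6 kb of the rest. Its share was 10.6% ± 9.6 and 11.3% ± 8.3 (SD, n = 4), a difference of -0.74 percentage points (exact sign-flip p 1, adjusted 1). Both differences were smaller than their spread between libraries. H3K27ac was higher inside the domain only in replicate 2, and without it the difference was -7.43 percentage points. The H3K27ac difference was positive without replicate 1 (0.145), replicate 3 (1.57) or replicate 4 (2.74), and 6 of 11 alternatives reversed its sign. Most of the Etv6 promoter region counted as rest of the window. The H3K27ac difference was -0.162 with bases under H3K4me3 peaks left out and -0.322 with the rest taken only beyond the domain end.

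**Figure D5:**
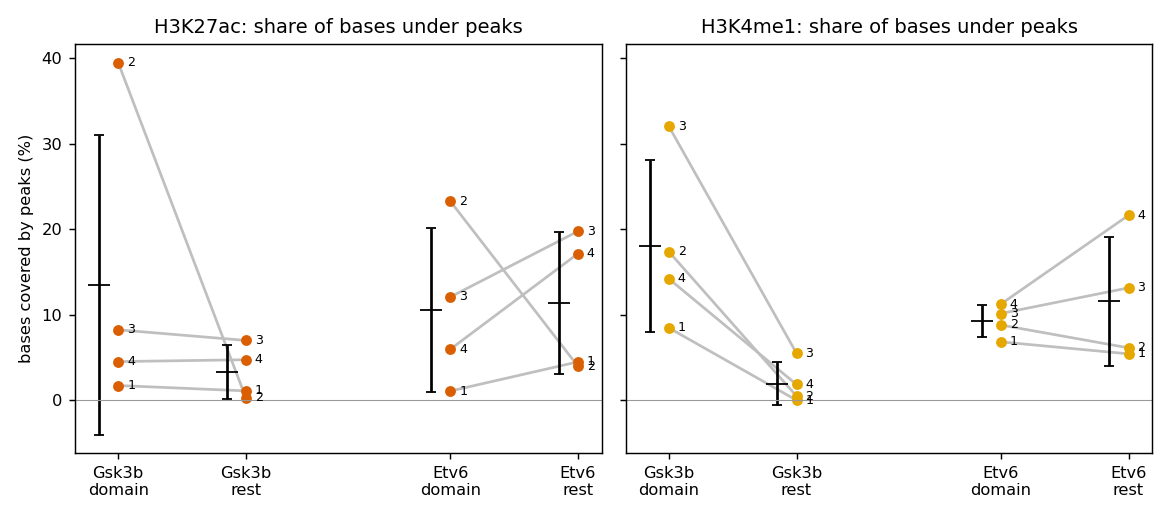
Share of bases under H3K27ac (left) and H3K4me1 (right) peaks in each domain and in the rest of its window, in percent; numbered points are replicates, grey lines join a library, and black bars are mean ± SD (n = 4). H3K4me1 is higher in the Gsk3b domain than in the rest in all 4 libraries, and H3K27ac replicate 2 alone reaches 39.5% in the Gsk3b domain.

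The Etv6 domain held 5 enhancer-like regions and the rest of its window 14, which was 0.660 and 0.760 per 10 kb. The count in the domain was 3 without replicate 2 and 3 without replicate 3 of both marks, and 1 with peaks scoring no less than the median or with peaks closer than 1000 bp merged. In the rest, 4 of the 14 had H3K27ac in all 4 libraries, and 13 touched an H3K79me2 peak of at least 1 library. The widest ran from 168.8 to 174.7 kb, where H3K27ac covered 775, 0, 4934 and 5205 bp in replicates 1 to 4 and H3K4me1 covered 1327, 984, 2380 and 4412 bp. H3K27ac replicate 2 had no peak in this region. The region from 204.4 to 208.4 kb had both marks in 4 of 4 libraries, with H3K27ac over 175, 163, 2167 and 3894 bp. The last one, from 223.9 to 227.7 kb, began just after the last H3K79me2 peaks and touched no H3K79me2 peak, and H3K4me1 covered 575, 1902, 1861 and 1392 bp of it. Inside the domain, the regions from 1.61 to 2.93 kb, 6.29 to 9.30 kb and 27.7 to 29.0 kb had H3K27ac in 3 libraries and H3K4me1 in 4.

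The loci and marks were then compared within the domains. H3K4me1 covered a larger share of the Gsk3b domain than of the Etv6 domain in 4 of 4 libraries, by 8.77 percentage points (exact sign-flip p 0.125, adjusted 0.500). It was 4.39 without replicate 3, and 1.71 when every list was cut to its 5224 highest scores. For H3K27ac the difference between the loci was 2.89 percentage points (exact sign-flip p 0.875, adjusted 1), and it was -1.54 without replicate 2. H3K27ac minus H3K4me1 was -4.53 percentage points in the Gsk3b domain (exact permutation p 0.6, adjusted 1) and 1.34 in the Etv6 domain (exact permutation p 0.83, adjusted 1), both within the spread between libraries. Without replicate 2 these differences were -13.4 (exact permutation p 0.1, adjusted 0.5) and -3.04, and without replicate 3 the Gsk3b value was 1.89. The lists covered 0.777% to 4.49% of the genome span for H3K27ac and 0.602% to 2.16% for H3K4me1. The part of that breadth in the differences between the marks was not tested. None of the 8 differences passed an adjusted 0.05, and with 4 libraries per mark no test of this family could.

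Set beside the 719 shared H3K79me2 stretches of 20 kb or more, neither domain was above the median for H3K4me3, H3K27ac or H3K4me1. H3K4me1 covered a mean of 18.0% of the Gsk3b domain, the same as the median stretch (18.0%), and 9.25% of the Etv6 domain, less than in 78.6% of stretches. For H3K27ac without replicate 2 the means were 4.82% at Gsk3b and 6.36% at Etv6, against a median of 13.3%. H3K4me3 covered 3.55% and 0.804%, against a median of 4.22%. The stretches differ in length, and whether length has a part in these shares was not tested. At Etv6 a mean of 2.29 kb of H3K4me3 lay in the rest of the window and 0.61 kb in the domain. The 72.8 kb stretch on chromosome 8 had a mean of 6.36% under H3K4me3.

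Repressive marks covered little of either domain. H3K27me3 had no peak in either domain in any library, which was so in all but 7 of the 719 stretches. Beyond the Etv6 domain, H3K27me3 was found from 80.7 to 85.4 kb in 3 of 4 libraries, where replicates 2, 3 and 4 covered 362, 4727 and 296 bp and replicate 1 none. The score was 817.89 in replicate 3 and 70.91 and 57.43 in replicates 2 and 4. H3K27me3 replicate 3 covered 3.98% of the genome span against 0.420% to 1.26% in the other H3K27me3 lists, and the part of that breadth in this result was not tested. H3K79me2 covered 4727, 4727, 2853 and 3321 bp of the same 4727 bp in replicates 1 to 4, H3K4me1 covered 771, 810, 1750 and 1912 bp, and H3K27ac covered 435, 787, 1380 and 846 bp, so active marks were called there in every library. H3K9me3 peaks in the domains came from replicate 4 alone, with 4 peaks over 1117 bp at Gsk3b and 2 over 1057 bp at Etv6, all scoring below 90. Those few peaks gave the domains 5.11 times (Gsk3b) and 6.09 times (Etv6) the share of the genome span that the H3K9me3 replicate 4 list covered. Over 4 libraries H3K9me3 covered a mean of 0.293% and 0.349% of the domains, and 36.6% and 34.1% of the 719 stretches had more.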

How the data were processed

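The deposited files are peak lists, 1 for each of 24 antibody libraries, whose peak names carry the name of the MACS caller. Per the submitters' processing notes, CASAVA 1.7, Bowtie, MACS and deepTools were used and the build was mm9; roles, settings and the use of input as control are not given in the sources used here. Each peak has a deposited score, the authors' own value; it was at least 50 in every list and was used only to describe or filter peaks. Per the labels, 3 mg of tissue per antibody was fixed in 1% paraformaldehyde and sheared to 250 to 500 bp. The lists hold no read counts, so depth is unknown; they held 5224 to 96068 peaks.

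Libraries were grouped by the mark and replicate number in their titles. Peaks sharing at least 1 bp with a window were taken; covered length counts each base once. Covered shares were compared by exact two-sided tests, a sign-flip over 4 within-library differences (smallest p 0.125) or a permutation of 4 against 4 libraries (smallest p 0.0286), with Benjamini-Hochberg adjustment over 8 tests. Where nothing says that replicates are separate animals, p-values measure only the spread between these libraries. The named loci are the 2 given by the rule, with the 3 next longest shared stretches. The loci, lists and tests were chosen with earlier results of these data known. Python 3.11.15 and numpy 2.4.6 were used, and the interval code was tested on simulated data. Replicate numbers paired libraries of different marks only in an alternative with the number as a block.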

Additional observations from a re-analysis of the deposited data

Results flagged for a closer look

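The libraries of each mark at each locus were compared in 40 groups of 4, and 15 groups had a library whose gap to the nearest other, divided by the range, was above the 95% critical value of Dixon's test. Chance flags about 1 in 20 groups, here 2, and the groups share libraries. Many groups hold zeros in 3 of 4 libraries, where any peak stands apart.

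At Gsk3b, H3K27ac replicate 2 had 131 peaks in the window, far above the rest. H3K4me3 replicate 1 was low, with 1.557 kb both inside the domain and in the promoter region. H3K27me3 replicate 4 had the only peak of its mark in the Gsk3b window (1 peak, 0.234 kb, outside the domain). H3K9me3 replicate 4 covered 1.117 kb of the domain, and H3K9me3 replicate 2 covered 0.189 kb of the rest of the window, each the only library to do so.

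At Etv6, H3K79me2 replicate 4 covered 73.216 kb of the domain, less than the others. H3K4me3 replicate 1 was low, with 0.673 kb in the promoter region and in the rest of the window, and H3K4me3 replicate 3 had 3 peaks where the others had 1. H3K27me3 replicate 3 covered 6.766 kb of the rest of the window. H3K9me3 replicate 4 had all 5 H3K9me3 peaks of the window, with 1.057 kb inside the domain and 0.990 kb outside.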

How the results depend on the processing

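The length covered in all 4 H3K79me2 lists depended on the processing. At Gsk3b it was 25874 bp with no gap closed, 97454 bp with gaps up to 3000 bp closed, 30712 bp with peaks scoring no less than the median and 19729 bp with the 5224 best-scored peaks of each list. At Etv6 these values were 26598, 82598, 15778 and 6629 bp. Leaving out each replicate in turn gave 95359 to 101005 bp at Gsk3b and 75723 to 83910 bp at Etv6, the longest without replicate 4. The enhancer-like regions inside the Gsk3b domain numbered 1 with at least 3 libraries of each mark and 1 with peaks scoring no less than the median, and 1 to 3 with a replicate left out. Inside the Etv6 domain they numbered 3 with H3K4me1 over at least 50% of the region, 1 with peaks scoring no less than the median, 1 with peaks closer than 1000 bp merged, and 3 to 5 with a replicate left out.

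The difference of H3K4me1 inside and outside the Gsk3b domain stayed positive under all 11 alternatives. It was 4.26 as peaks per 10 kb and 3.48 to 26.5 percentage points in the others. These include the one added after seeing the data, which left out bases under H3K4me3 peaks. With a replicate left out it was 12.6 to 18.6. The same difference for H3K27ac was 0.553 to 13.7 with a replicate left out. H3K27ac inside minus outside the Etv6 domain changed sign to 2.40 with peaks closer than 1000 bp merged, to 1.26 with the domain covered in at least 3 of 4 lists and to 1.31 as peaks per 10 kb, and was -7.43 to 2.74 with a replicate left out. For H3K4me1 it changed sign to 0.0435 with that wider domain and to 0.00882 as peaks per 10 kb, and was -3.99 to 0.358 with a replicate left out. H3K27ac minus H3K4me1 changed sign with the best-scored peaks, to 0.0996 at Gsk3b and -0.57 at Etv6, and was -13.4 to 1.89 and -3.04 to 3.71 with a replicate left out. H3K27ac at Gsk3b minus Etv6 was -1.54 to 5.14, and H3K4me1 4.39 to 11.1, with a replicate left out. The H3K4me1 difference between the loci was 1.71 with the best-scored peaks (exact sign-flip p 0.625) and 6.20 with the wider domain (exact sign-flip p 0.375). The cause of these changes was not tested. With the replicate number as a block, H3K27ac minus H3K4me1 was again -4.53 at Gsk3b and 1.34 at Etv6, and no call changed. Same-numbered H3K27ac and H3K4me1 libraries deviated together with r of 0.428, 0.366, 0.000237 and 0.414 for numbers 1 to 4 over bins of 5 kb (mean 0.302, against -0.103 for different numbers), and 3 of 4 H3K27ac libraries were closest to their own number, a hint from the data. Number 3 did not exceed 0.1, the limit required of every pair, so the numbers were not taken to pair them. Peak lists cannot show signal below the caller's limit, so a missing peak is not a missing mark.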

Other observations

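Along Etv6, 2 H3K4me1 regions beyond the domain were present in all 4 libraries without an H3K27ac peak in any. The first, from 110.6 to 112.3 kb after the domain start, was covered over 476, 506, 710 and 1499 bp in H3K4me1 replicates 1 to 4 and touched H3K79me2 peaks in 4 libraries. The second, from 120.7 to 121.9 kb, was covered over 362, 230, 660 and 1204 bp and touched H3K79me2 peaks in 2. Inside the Gsk3b and Etv6 domains, none of the 12 and 3 H3K4me1 regions present in 4 libraries lacked H3K27ac in every library. At Gsk3b this rests on H3K27ac replicate 2 for 8 of the 12.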
